A study of Mus musculus with 4 samples.

Results

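Satellite cells with low levels of immediate-early genes made up 4781 of the 13924 Pax7-positive cells that met the limits below, and of the 27425 barcodes in all 4 libraries. The cells were chosen by their measured values, not by clustering: each had 1000 to 5000 detected genes, at most 8% of its unique molecular identifiers (UMIs, the counts of captured molecules) from mt- genes, at least 1 UMI of Pax7, none of Myog, Top2a, Cdh5, Sox10 or Ptprc, and at most 1 of Rgs5. Cells that met all these limits are the Pax7-positive cells of this report. They were called low where Fos, Junb and Jund together gave fewer than 100 of every 10000 UMIs, and high otherwise. There were 1608 low cells among 4473 in B10 against 1471 among 3880 in mdx, and 956 among 2587 in DBA against 746 among 2984 in D2-mdx.

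The libraries came from hindlimb muscle of mice. The strains were C57BL/10ScSn (B10, 15 weeks), C57BL/10ScSn-Dmdmdx (mdx, 11 weeks), DBA/2 (DBA, 13 weeks) and D2.B10-Dmdmdx (D2-mdx, 14 weeks). The ages are those of the sample labels, and the study's methods say 2 to 3 months. The mdx allele is a loss-of-function mutation of the dystrophin gene carried through the whole animal, and neither control strain carries it. Muscle of 2 mice per strain was pooled, and cells were sorted for α7-integrin and VCAM1 after Cd11b, Sca1, Cd45 and Cd31 were gated out, so that markers of blood and vessel cells were partly set by the sort. No treatment is given in the labels. Each strain was 1 library, so that strain, age, sort and library cannot be told apart, no test was run, and every interval printed (95%, exact) covers counting error only. Where 4 values stand side by side without names, they belong to B10, mdx, DBA and D2-mdx, in this order.

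Satellite cells are the stem cells of skeletal muscle. They lie quiescent between the myofiber and its basal lamina, are marked by the transcription factor PAX7, and are held in quiescence in part by Notch signaling; after injury they activate, divide and differentiate or return to quiescence. Immediate-early genes such as Fos and Jun family members encode short-lived transcription factors and feedback regulators whose transcription begins within minutes of a stimulus without new protein synthesis. They are known to be induced both by activation in muscle and by the enzymatic dissociation that precedes sorting, so that freshly isolated satellite cells commonly carry them, and the part of either was not tested.

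The summed level of Fos, Junb and Jund ran without a gap across the limit. In the low cells its median was 26.6 per 10000 UMIs in B10 against 29.2 in mdx, and 43.4 in DBA against 30.2 in D2-mdx, and in the high cells it was 226.7, 271.3, 190.0 and 285.8. Between 80 and 100 there were 198, 170, 180 and 96 cells, and between 100 and 120 there were 201, 158, 161 and 96, in the same order of libraries. The cells nearest to the limit had 99.9, 99.6, 99.9 and 99.7 inside it and 100.2, 100.1, 100.0 and 100.1 outside it. The low cells are therefore 1 range of a continuous measure, and whether they form a separate type was not tested.

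**Figure D1:**
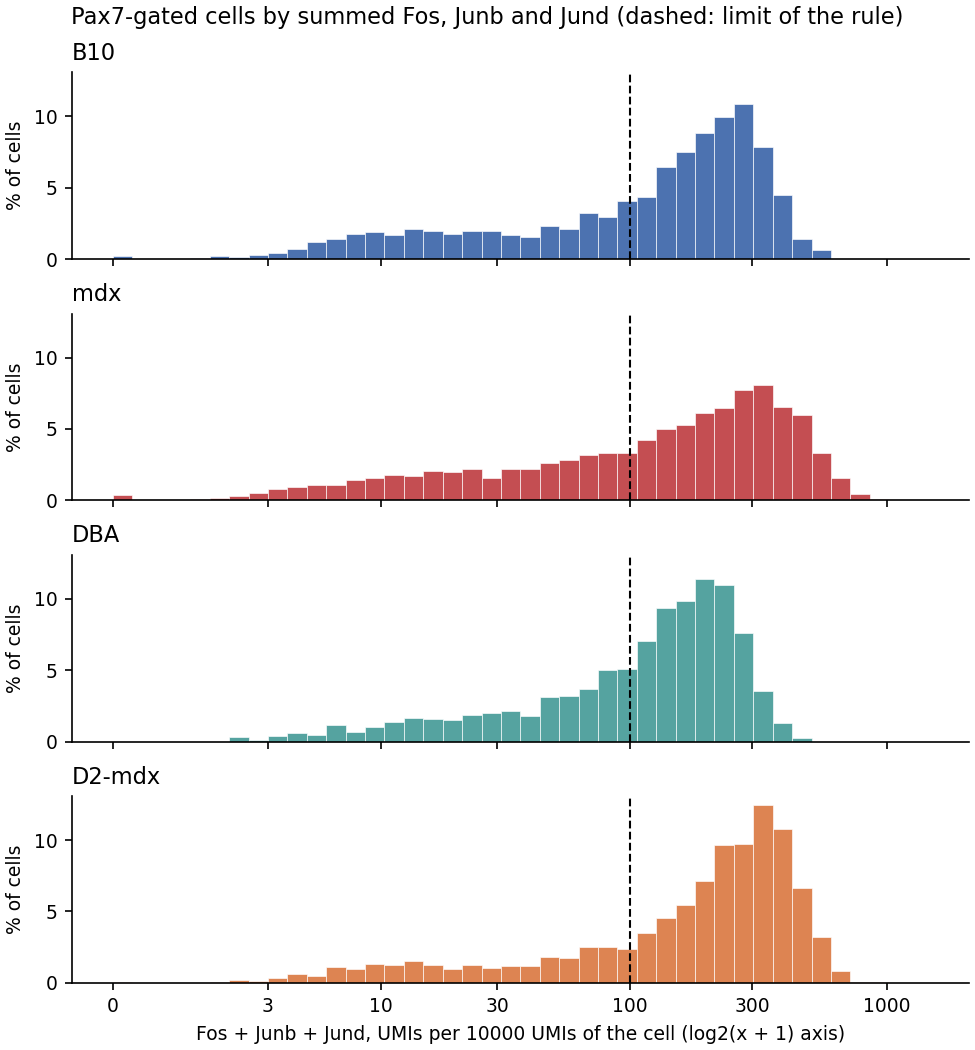
Share of Pax7-positive cells (y axis, percent of the cells of a library) by the summed UMIs of Fos, Junb and Jund per 10000 UMIs (x axis, on a log2 scale after adding 1), as bars with 1 panel for each library and the limit of 100 dashed. Cells lie on both sides of the limit in every library, with 198, 170, 180 and 96 cells between 80 and 100 in B10, mdx, DBA and D2-mdx.

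The low cells were 35.9% of the Pax7-positive cells in B10 (34.5 to 37.4) and 37.9% in mdx (36.4 to 39.5), then 37.0% in DBA (35.1 to 38.8) and 25% in D2-mdx (23.5 to 26.6). The interval of D2-mdx lay below those of the other libraries, which overlapped each other. Cells thinned to 3000 UMIs before the rule was applied gave 35.9%, 37.4%, 36.4% and 24.7%. With the limit at 50 in place of 100, the share of D2-mdx minus that of DBA was -4.21 percentage points, where it was -12.0 with the limit at 100, and with the limit at 200 it was -28.8. For mdx minus B10 the difference of 1.96 points became -3.60 with the limit at 200. With at most 5% mt- UMIs this difference was 7.43 points, where the low cells were 27.4% in B10 and 34.8% in mdx.

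As gene levels, the low cells kept a part of each of the genes that set the rule. Fos (chromosome 12, 85473890 to 85477273, GRCm38) was at 1797 CPM (counts for every 1000000 UMIs) in low cells of B10 and 1800 in mdx, then 2192 in DBA and 1998 in D2-mdx, where high cells had 12103, 14782, 10223 and 15686. Junb (chromosome 8, 84974484 to 84978718) was at 763, 793, 917 and 905 CPM in low cells and 5219, 5839, 4557 and 6680 in high cells. For Jund (chromosome 8, 70698949 to 70700616) the values were 1480, 1326, 1581 and 1025 against 5800, 6651, 4847 and 5573. These genes were used by the rule, and their values are a description.

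Pax7 and its companions Notch3 and Ncam1 were present in the low cells of every library. Ryr3 and Slc22a3, both members of the marker set for these cells, were much lower in the dystrophic strains than in their controls. Pax7 (chromosome 4, 139737062 to 139833528) was at 893 CPM in B10 against 422 in mdx, and 640 in DBA against 410 in D2-mdx. Notch3, a Notch receptor, was at 373, 226, 274 and 181 CPM. Ncam1, a cell adhesion molecule of myogenic cells, was at 354, 275, 308 and 214 CPM. Each was higher in either control than in either dystrophic library, where the level of Pax7 was in part set by the rule.

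Ryr3, an intracellular calcium release channel, was at 133 CPM in B10 and 145 in DBA, but 13.9 in mdx and 7.39 in D2-mdx. Slc22a3, an organic cation transporter, was at 20.9 CPM in B10 (268 UMIs) and 0.0744 in mdx (1 UMI), then 123 in DBA (1301 UMIs) and 2.26 in D2-mdx (15 UMIs). High cells had 16.9, 0.171, 92.7 and 5.97 CPM of Slc22a3 in the same order, so that high cells carried this gene too, and Ryr3 had 80.8, 13.2, 98.0 and 9.32. The label of satellite cells thus had Ryr3 beside it in the control libraries, and Slc22a3 in DBA. In mdx and D2-mdx it had Notch3 and Ncam1, which high cells carried as well, and Pax7, which the rule required. DBA also had more Slc22a3 than B10 had, so that this gene was not at a common level in the controls either.

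Cells that carried at least 2 UMIs of Cdh5, Sox10 or Ptprc and none of Pax7 gave the share of cells with a UMI in other cell types, which holds free RNA and what those cells express themselves. After thinning to 3000 UMIs, Notch3 had a UMI in 68.2%, 48.2%, 57.9% and 44.4% of low cells of B10, mdx, DBA and D2-mdx, and in 0.0%, 4.79%, 6.90% and 7.21% of the 33, 522, 29 and 319 other cells, where 0 of 33 allows a share of up to 10.6%. High cells had a UMI of Notch3 in 59.3%, 48.7%, 52.4% and 45.8%. For Ncam1 the shares were 63.2%, 54.7%, 56.6% and 49.5% in low cells and 18.2%, 25.3%, 24.1% and 19.4% in other cells, so that some part of its share may be background. Ryr3 was found in 28.5%, 5.17%, 32.3% and 2.41% of low cells and 3.03%, 0.192%, 0.0% and 0.313% of other cells. Its intervals overlapped in D2-mdx alone (1.44% to 3.79% against 0.00794% to 1.73%). Slc22a3 was found in 5.29%, 0.0680%, 31.4% and 0.804% of low cells and 3.03%, 0.0%, 3.45% and 0.313% of other cells, and of its intervals those of DBA alone did not overlap (28.4% to 34.4% against 0.0873% to 17.8%). The medians of UMIs per cell, before thinning, were 7322.5, 7589, 10159.5 and 7227 in low cells and 6184.5, 6898.5, 10972 and 7671 in the other cells.

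Depth and cell makeup moved with the low cells in ways that differed between libraries. Median UMIs were below those of high cells in B10 (7322.5 against 9035) and above them in mdx (7589 against 6460) and D2-mdx (7227 against 5853.5), and nearly level in DBA (10159.5 against 10270). Median mitochondrial UMIs were higher in low cells everywhere, at 4.69%, 3.53%, 3.94% and 3.5% against 3.74%, 2.73%, 3.54% and 3.18%. The smallest low cell had 1730 UMIs in B10 against 3079 in mdx, and 8490 in DBA against 4226 in D2-mdx, so that DBA held no shallow cells. At most 1 barcode was shared by the low cells of any pair of libraries.

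Cells with matrix genes were common among the low cells of the dystrophic strains. At least 5 UMIs per 10000 of Postn, Mgp, Gpc3, Col1a2 and Cited1 together were found in 0.373% of low cells in B10 against 56.0% in mdx, and 0.418% in DBA against 33.0% in D2-mdx, and in 0.314%, 28.0%, 0.0613% and 12.7% of high cells. The same limit was met by 58.8%, 39.5%, 55.2% and 45.8% of the other cells, controls included. Thinned, Postn had a UMI in 0.252%, 23.4%, 0.523% and 12.9% of low cells and 27.3%, 31.6%, 20.7% and 38.9% of other cells, and the part of RNA from such cells in the low cells was not tested. Without these cells the low share of mdx minus that of B10 was -8.77 percentage points, where it had been 1.96, and that of D2-mdx minus DBA was -16.5. Values without these cells, a step chosen after the levels of their genes were seen, are given beside the counts of lists with genes past the fold between strains and beside some single genes.

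Within each library, low cells had less of a set of immediate-early, feedback and stress genes than high cells had. No gene was at least 2-fold higher in low cells of all 4 libraries. Of 2521 genes with at least 50 CPM in low or high cells of every library, counted without Fos, Junb, Jund and mt- genes, 38 (1.51%) were at least 2-fold lower in low cells of all 4 libraries and 0 (0.0%) at least 2-fold higher. Because low and high cells were split by genes of the same measurement, these counts describe the split and are not a finding about it. Per library 52 genes were lower in B10 (2.06%) and 86 in mdx (3.41%), then 40 in DBA (1.59%) and 82 in D2-mdx (3.25%), and 0 (0.0%), 12 (0.476%), 0 (0.0%) and 12 (0.476%) were higher. A CPM is a share of all UMIs, so that more UMIs of some genes leave a smaller share for the others. The median log2 ratio of low over high cells over all genes was 0.15, 0.15, 0.12 and 0.11 in B10, mdx, DBA and D2-mdx. Log2 ratios of low over high cells are therefore given relative to that median, while genes were called at 2-fold on the ratios before it was taken off.

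Atf3, a stress-induced transcription factor, was furthest below when genes were ranked by their least extreme library. Its level was 61.8 CPM in low cells of B10 and 90.2 in mdx, then 25.3 in DBA and 89.4 in D2-mdx, against 665, 915, 291 and 701 in high cells, which gave relative log2 ratios of -3.57, -3.49, -3.64 and -3.08. Every low value lay under every high value. Zfp36, which encodes an RNA-binding protein that speeds the decay of messages such as those of immediate-early genes, was at 157, 100, 169 and 114 CPM in low cells and 1155, 730, 856 and 738 in high cells. Its relative log2 ratios were -3.02, -3.02, -2.46 and -2.81.

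Transcription factors induced with Fos followed. Klf4 was at 185, 114, 114 and 84.6 CPM in low cells and 998, 778, 475 and 552 in high cells. Nr4a1, an orphan nuclear receptor, was at 61.9, 22.7, 45.5 and 23.4 CPM against 373, 237, 182 and 200, and its relative log2 ratio was -3.53 in mdx and -2.12 in DBA, the widest and the narrowest of the 4. Egr1, a zinc-finger factor, was at 1966, 1195, 1879 and 983 CPM in low cells and 8428, 6109, 5781 and 5382 in high cells. The low levels of Nr4a1 and Egr1 were lower in mdx and D2-mdx than in B10 and DBA.

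Feedback and secreted genes were among the 12 furthest below as well. Socs3, an inhibitor of cytokine signaling through JAK and STAT proteins, was at 217, 348, 273 and 508 CPM in low cells and 1533, 1908, 1369 and 2231 in high cells. Btg2, an antiproliferative gene, was at 489, 264, 455 and 188 CPM against 2313, 2095, 1670 and 1538. The chemokine gene Cxcl1 had relative log2 ratios from -2.66 to -1.93. Ier2, Dnajb1, Nfkbiz and Gm26532 were also among the 12, and no counting interval of the 12 reached further than 0.24 log2 units from its ratio.

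Of 24 further immediate-early genes above the minimum, from a list of 37 that left out Fos, Junb and Jund, 24 had a lower CPM in low cells of all 4 libraries and 20 were among the 38, beside 226 and 38 (1.51%) of all 2521 genes. The remaining 4, Mcl1, Fosl2, Sgk1 and Myc, were lower by less than 2-fold in at least 1 library. The median relative log2 ratio of the list was -2.05 in B10 against -2.44 in mdx, and -1.66 in DBA against -2.42 in D2-mdx, where all genes have 0 by construction. Summed, its genes had 9079, 7771, 9964 and 7447 CPM in low cells and 37810, 37057, 30882 and 35872 in high cells. The low sums of the 4 libraries were closer to each other than any was to a high sum. Because the cells were split by immediate-early genes, this describes the split.

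Heat shock genes had smaller ratios than immediate-early genes. Of 15 above the minimum, 3, Hspb1, Hsph1 and Dnajb1, were at least 2-fold lower in low cells of all 4 libraries, beside 1.51% of all genes, and 12 had a lower CPM there by any amount, as had 226 of all 2521 genes. The median relative log2 ratio of the list was -0.81 in B10 against -0.99 in mdx, and -0.59 in DBA against -0.88 in D2-mdx. Hspa1a, the inducible HSP70, was at 1246 CPM in low cells of B10 and 1047 in mdx, then 1307 in DBA and 635 in D2-mdx, against 3059, 3520, 2481 and 2295 in high cells. Dnajb1, a co-chaperone of HSP70, was at 137, 130, 145 and 85.2 CPM against 761, 921, 567 and 728. The mitochondrial chaperone gene Hspd1 was the only member with a higher CPM in low cells of all 4 libraries, by 0.03 to 0.70 log2 units before the median was taken off.

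**Figure D2:**
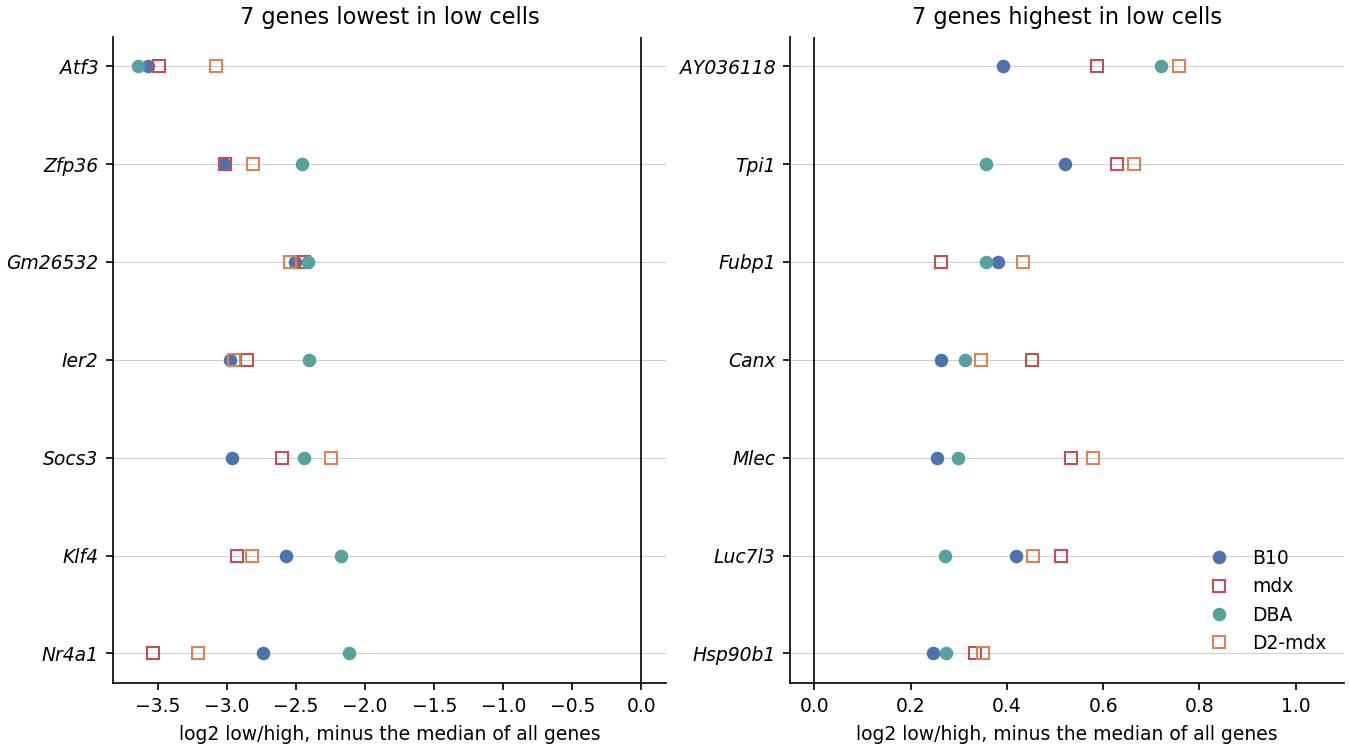
Log2 ratio of CPM in low over high cells, relative to the median of all genes (x axis), for the 7 genes furthest below and the 7 furthest above in all 4 libraries (y axis), with 1 point for each library: filled circles for B10 and DBA, open squares for mdx and D2-mdx. The genes furthest below reached -3.64 (Atf3 in DBA) and those furthest above 0.76 (AY036118 in D2-mdx).

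No gene was 2-fold higher in low cells of all 4 libraries, and the 12 genes furthest above had small ratios. Tpi1, a glycolytic enzyme, was at 74.2 CPM in low cells of B10 and 110 in mdx, then 73.2 in DBA and 138 in D2-mdx, against 46.8, 64.1, 52.6 and 80.5 in high cells, with relative log2 ratios of 0.52, 0.63, 0.36 and 0.67. Canx, Mlec and Hsp90b1, which act in protein folding in the endoplasmic reticulum, had relative log2 ratios between 0.25 and 0.58. Ndufa4 and Hadhb, genes of mitochondrial respiration and fatty acid oxidation, had ratios between 0.25 and 0.61. The remaining members were AY036118, Fubp1, Luc7l3, Itm2a, Ublcp1 and Lix1. Their counting intervals reached at most 0.18 log2 units from the ratio.

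Promoters of Fos, 1 of the genes that split the cells, and of Btg2 and Zfp36 from the 38 are shown because they carry the sequences through which immediate-early genes are known to be induced: the cyclic AMP response element (CRE, TGACGTCA), its half-site (TGACGT) and the serum response or CArG box (CC, then 6 bases of A or T, then GG). The sequences are RefSeq bases upstream of the annotated gene start in GRCm38.p6, written 5′ to 3′ on the strand of the gene, and capitals mark the match. Fos lies at chr12:85473740-85473889 on the plus strand with the half-site beginning 66 bases before the start, Btg2 at chr1:134079156-134079355 on the minus strand with the CRE at 166 bases, and Zfp36 at chr7:28379229-28379378 on the minus strand with the CArG box at 58 bases. Starts are those of RefSeq, and in the GENCODE annotation, where Zfp36 spans 28376784 to 28380253 and Btg2 134075170 to 134079120, the window of Zfp36 lies inside the gene.
Fos: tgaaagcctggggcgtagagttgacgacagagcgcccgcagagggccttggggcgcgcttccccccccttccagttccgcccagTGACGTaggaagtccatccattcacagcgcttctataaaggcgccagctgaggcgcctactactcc
Btg2: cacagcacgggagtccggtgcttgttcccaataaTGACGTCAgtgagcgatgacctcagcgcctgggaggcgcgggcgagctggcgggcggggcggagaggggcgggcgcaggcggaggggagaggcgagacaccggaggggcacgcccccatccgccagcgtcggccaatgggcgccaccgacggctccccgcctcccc
Zfp36: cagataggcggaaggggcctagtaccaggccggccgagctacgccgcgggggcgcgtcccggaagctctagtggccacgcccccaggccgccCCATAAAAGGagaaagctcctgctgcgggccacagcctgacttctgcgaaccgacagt

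In windows from 250 bases before to 50 bases after a gene start, searched on both strands, a CRE was present in 2.03% of 27025 genes and in 4.28% of the 1962 of 2521 tested genes that had a window. Among the 28 of 38 lower genes with a window, 4 (14.3%) had one: Btg2, Dusp1, Maff and Ppp1r15a. The half-site, which every CRE contains, was present in 8.37% of all genes, 17.2% of tested genes and 8 (28.6%) of the 28. A CArG box was found in 1.81% of all genes and 2.29% of tested genes, and in 1 of the 28, Zfp36. The AP-1 site (TGANTCA), which Fos and Jun proteins bind, was in 8.97% of all genes, 5.71% of tested genes and 0 of the 28. These matches of letters describe the windows only.

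Genes of quiescence had median ratios of low over high cells near that of all genes in the controls, and lower ones in the dystrophic strains. A list of 215 names for genuinely quiescent satellite cells, which the study took from other work and not from these libraries, had 65 genes above the minimum. Its median relative log2 ratio of low over high cells was -0.01 in B10 and -0.02 in DBA, and -0.45 in mdx and -0.47 in D2-mdx. Leaving out the cells rich in matrix genes, the medians of the dystrophic strains were -0.32 and -0.46. Of the 65 genes 2, Egr1 and Trib1, were among the 38, beside 1.51% of all genes, and both belong to the immediate-early list as well.

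Single genes of quiescence showed the same split between strains. Gpx3, a secreted glutathione peroxidase, was at 1803 CPM in low cells of B10 and 1376 in DBA, near the 1679 and 1464 of their high cells. In mdx it was at 503 against 1022 and in D2-mdx at 439 against 945, with relative log2 ratios of -1.17 and -1.22 that were -0.75 and -0.90 without the matrix cells. Gas1, a growth arrest gene at the cell surface, was at 1901, 756, 2157 and 585 CPM in low cells of B10, mdx, DBA and D2-mdx and 2218, 1391, 2524 and 1160 in high cells. Spry1, an inhibitor of growth factor signaling needed for return to quiescence, was at 566, 325, 436 and 249 CPM against 682, 609, 515 and 526. For Gas1 and Spry1, relative ratios were -0.41 to -0.35 in the controls and -1.19 to -1.03 in the dystrophic strains.

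Ryr3 went the other way in the controls. Its relative log2 ratio of low over high cells was 0.58 in B10 and 0.44 in DBA. Sdc4, the syndecan by which satellite cells are often recognized, was lower in low cells of all strains, with 733, 452, 472 and 359 CPM against 1341, 946, 707 and 697. Over the 19 measured genes of quiescence that act at the surface or are secreted, the median relative ratio was 0.03 in B10 against -0.29 in mdx, and -0.01 in DBA against -0.40 in D2-mdx, and none was 2-fold lower or higher in all 4 libraries.

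Notch pathway genes followed that order with smaller values. Their 8 measured members had median relative log2 ratios of -0.03 in B10 and -0.22 in mdx, then -0.04 in DBA and -0.34 in D2-mdx, and none was 2-fold apart in all 4 libraries. Notch3 was at 373, 226, 274 and 181 CPM in low cells and 316, 225, 257 and 214 in high cells. Hes1, a target that represses differentiation, was at 384, 207, 244 and 149 CPM against 458, 424, 328 and 253. The value of Hes1 in low cells of mdx was less than that of its high cells by a relative log2 ratio of -1.18.

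Among 10 measured myogenic factors only Id1 and Id3, inhibitors of basic helix-loop-helix factors and themselves quickly induced, were at least 2-fold lower in low cells of all 4 libraries, beside 1.51% of all genes. Id3 was at 459 CPM in low cells of B10 and 1028 in mdx, then 237 in DBA and 623 in D2-mdx, against 1212, 3412, 652 and 2376. Pax7 had relative log2 ratios of -0.21, -0.62, -0.37 and -0.77 and passed the fold in no library. Since 1 UMI of Pax7 was required of every cell, its level in sparse cells was in part set by the rule.

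Genes that were higher in low than in high cells appeared in the dystrophic strains alone among the per-library counts, and 6 of them were shared by mdx and D2-mdx: Abracl, Capn6, Gamt, Lgals1, Mest and Nes. Without the cells rich in matrix genes, 2 of these, Lgals1 and Nes, were still at least 2-fold higher in both before the median was taken off. Relative to it Lgals1 was at 0.85 and Nes at 0.94 in mdx without those cells, under 2-fold, and at 1.22 and 1.06 in D2-mdx. With all low cells Mest and Nes alone of the 6 were at or above 1 in both on the relative scale. Nes, which encodes the intermediate filament nestin of myogenic progenitors, was at 62.2 CPM in low cells of B10 and 110 in mdx, then 93.5 in DBA and 194 in D2-mdx, against 54.0, 31.0, 64.9 and 71.4 in high cells. In the other direction 73 genes were shared by mdx and D2-mdx, of which 57 were still 2-fold lower without those cells, and 40 were shared by B10 and DBA, of which 40 were. Over the 5 measured genes of a matrix list drawn from the study's description of dystrophic cells, the median relative log2 ratio was -0.00, 0.79, 0.06 and 0.62, and without the matrix cells it was 0.21 in mdx and 0.09 in D2-mdx. The difference between strains was not tested.

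Cdkn1c, which encodes the cyclin-dependent kinase inhibitor p57, was higher in low than in high cells of the dystrophic strains. It was at 833 CPM in low cells of mdx against 255 in high cells, and at 410 against 100 in D2-mdx, while B10 and DBA had 19.4 and 20.3 in low cells and 19.7 in the high cells of each. Its relative log2 ratio was 1.56 in mdx and 1.92 in D2-mdx, and 1.04 and 2.02 without the matrix cells. In thinned cells it had a UMI in 5.61%, 42.6%, 6.07% and 28.6% of low cells and 51.5%, 32.4%, 31.0% and 22.9% of other cells, so that other cell types carried it in every library. Cdkn1a, the gene of p21, had the opposite sign, with 15.2, 103, 22.3 and 101 CPM in low cells and 48.3, 218, 55.3 and 200 in high cells. Low cells of every library thus had less Cdkn1a than high cells.

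Metabolic and ribosomal genes were closer to the median of all genes. Genes of oxidative phosphorylation had positive log2 ratios in all 4 libraries for 67 of 74 before the median was taken off, as had 1354 of all 2521 genes, with relative medians of 0.03 in B10 and 0.26 in mdx, then 0.07 in DBA and 0.29 in D2-mdx. Cox5a, a subunit of cytochrome oxidase, was at 169, 320, 199 and 563 CPM in low cells and 140, 186, 161 and 291 in high cells. The 81 ribosomal protein genes had medians of -0.14, -0.06, -0.12 and -0.00, 9 genes of autophagy and lysosomes 0.01, -0.16, 0.02 and -0.18, and 6 genes of the dystrophin complex 0.14, -0.09, 0.16 and -0.11. Cell cycle genes were few above the minimum (3 of 25), with medians of -0.04, 0.46, 0.07 and 0.53. Genes induced by interferon and genes of cell polarity had none above it, and in none of these lists was a gene 2-fold lower or higher in all 4 libraries.

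A further pair of lists, which the study took from other work on satellite cells and names TU 6h in vivo and TU 6h ex vivo, had 38 and 267 measured genes. Of the 267 genes of the ex vivo list, 21 were among the 38 lower genes (among them Atf3, Socs3, Ier2 and Egr1), beside 1.51% of all genes, and its median relative log2 ratio was -0.10, -0.08, -0.08 and -0.07 in B10, mdx, DBA and D2-mdx. Of the in vivo list 0 were, which at that share and with so few genes says little, and the medians were -0.03, -0.33, -0.04 and -0.38. Cytokines and growth factors had 3 measured members, of which Cxcl1 was 2-fold lower in all 4 libraries, beside 1.51% of all genes.

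**Figure D3:**
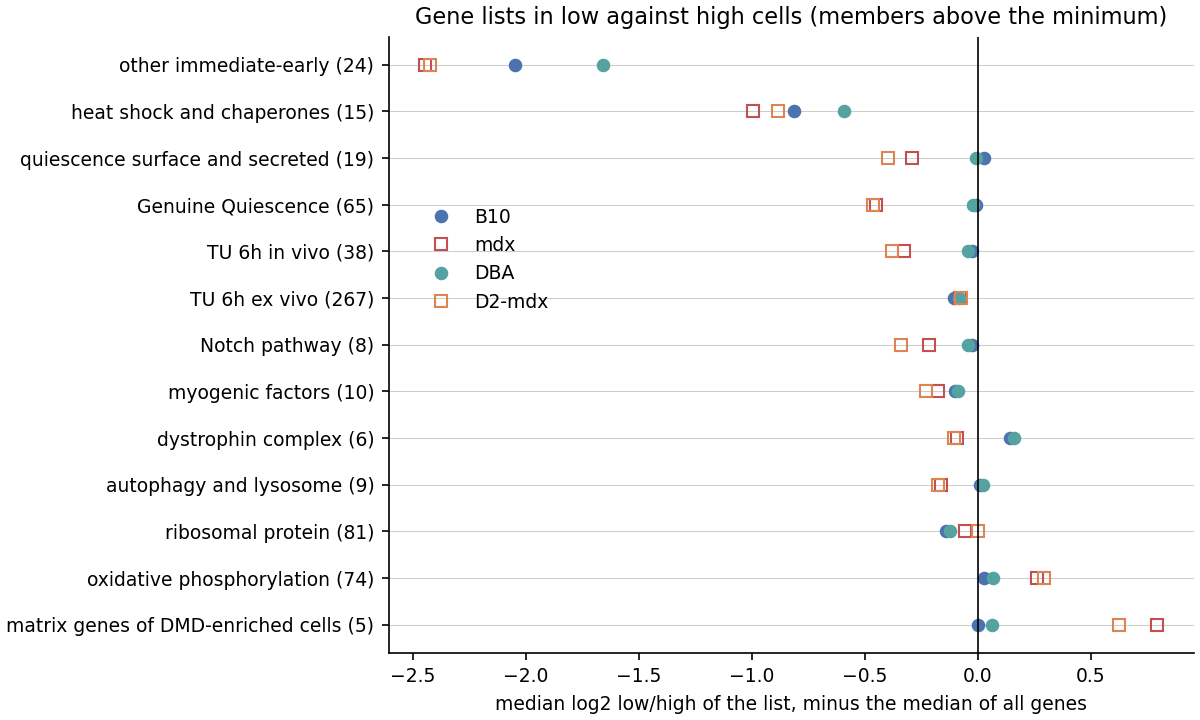
Median log2 ratio of CPM in low over high cells, relative to the median of all genes (x axis), for gene lists with the number of measured genes in brackets (y axis), with filled circles for B10 and DBA and open squares for mdx and D2-mdx. Immediate-early genes lie furthest left in every library (-2.44 to -1.66), and the list of genuine quiescence lies near 0 in B10 and DBA (-0.01 and -0.02) and at -0.45 and -0.47 in mdx and D2-mdx.

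The list of genuine quiescence was followed along the whole range of the Fos, Junb and Jund sum. With its immediate-early and heat shock members left out, its summed CPM was lower at the upper end in the controls. In the dystrophic strains it was higher there. The whole list, with those members, was higher at the upper end in every strain, going from 27232 to 34906 CPM in B10 against 13181 to 23796 in mdx, and from 28436 to 33760 in DBA against 12837 to 23457 in D2-mdx. Without those members the summed level in cells with 0 to 25 per 10000 was 26360 CPM in B10 and 27580 in DBA, and in cells with 300 or more it was 22610 and 24876. In mdx it was 12678 and then 14788 CPM, and in D2-mdx 12431 and then 15963. Heat shock genes were higher at the upper end in all strains, at 6830 and 16410 CPM in B10 against 11042 and 25295 in mdx, and 6924 and 13400 in DBA against 8779 and 16037 in D2-mdx. The sums are shares of all UMIs and carry the shift of the median given above. Between the end bins, the other immediate-early genes went from 3538 to 51551 CPM in B10 and from 3590 to 46256.5 in DBA. This leaves a smaller share for other genes. Relative to the median of all genes, the whole quiescence list was at -0.01 in B10 and -0.02 in DBA in low over high cells. Whether the fall in the controls exceeds this shift was not tested.

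Cdkn1c was at 869 CPM in the lowest bin of mdx and 65.3 in the highest, and at 428 and 44.2 in D2-mdx, while it did not exceed 28.8 in any bin of B10 or DBA. Over the same bins, cells rich in matrix genes were 56.9% and 15.5% of mdx cells and 32.8% and 6.27% of D2-mdx cells. The share and the level of Cdkn1c thus moved together, and the part of the one in the other was only measured by leaving these cells out. Ryr3 was at 164 CPM in the lowest bin of B10 and 80.9 in the highest, and at 164 and 79.8 in DBA. Pax7 was at 406 and 654 CPM in mdx, 383 and 717 in D2-mdx, 669 and 850 in DBA, and 995 and 1083 in B10, where the bins between were lower than both ends.

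**Figure D4:**
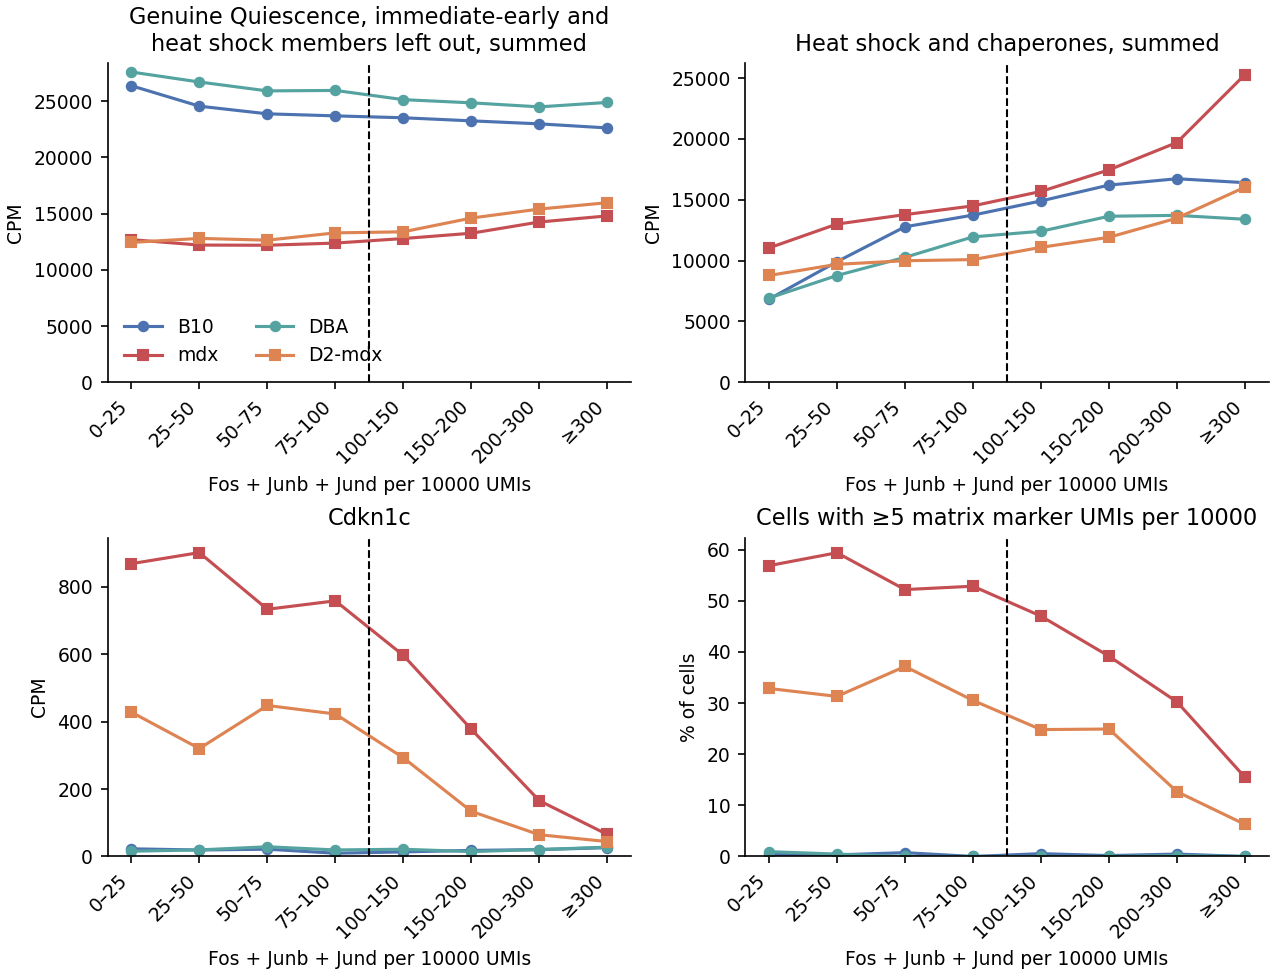
Levels in bins of the summed UMIs of Fos, Junb and Jund per 10000 UMIs (x axis), with the limit of 100 dashed and 1 line for each library: summed CPM of the quiescence list without its immediate-early and heat shock members and of heat shock genes, CPM of Cdkn1c, and percent of cells rich in matrix genes (y axes). From the lowest to the highest bin this trimmed list goes from 26360 to 22610 CPM in B10 and from 12678 to 14788 in mdx, and Cdkn1c from 869 to 65.3 CPM in mdx.

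The comparison of dystrophic with control strains describes how low immediate-early satellite cells differ between the libraries. Loss of dystrophin cannot be told apart from age, sort and library in it. The comparison is made within the low cells, of which the rule took different shares in each strain (above). The ratios therefore also depend on which cells were taken. Dmd (chromosome X, 82948870 to 85206141), the gene that carries the mutation, was at 390 CPM in low cells of B10 (380 to 401) and 119 in mdx (113 to 125), then 323 in DBA (312 to 334) and 91.9 in D2-mdx (84.8 to 99.5). The log2 ratio was -1.71 for mdx over B10 and -1.81 for D2-mdx over DBA, and the same ratios in high cells were -0.98 and -1.02. Both dystrophic libraries thus lay below their controls in the mutated gene. The counts are of 3′ ends, so that transcripts of a mutated gene are still counted. Of the 7 measured genes of the dystrophin complex, Dmd alone was at least 2-fold lower in both comparisons, beside 4.69% of all genes, and its ratios without the matrix cells were -1.33 and -1.52.

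Of 3195 genes with at least 50 CPM in low cells of at least 1 library of each pair, 146 (4.57%) were at least 2-fold higher and 191 (5.98%) at least 2-fold lower in mdx than in B10, and 179 (5.6%) and 210 (6.57%) in D2-mdx than in DBA. In both comparisons 113 (3.54%) were higher and 150 (4.69%) lower, and 0 were 2-fold apart in opposite directions. Of the 113, 65 were under 50 CPM in both controls and so entered only through the dystrophic libraries where they are high, and of the 150, 90 entered only through the controls. With TMM sizes the split was 129 higher and 129 lower, and with DESeq2 size factors 142 and 123. Leaving out the cells rich in matrix genes kept 65 of the 113 and 98 of the 150 past the fold, with 85 (2.66%) higher and 101 (3.16%) lower of all 3195, from 1602 cells of B10, 647 of mdx, 952 of DBA and 500 of D2-mdx. Leaving out every cell with a UMI of these genes kept 44 and 78.

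High cells of the same libraries had 52 genes higher and 51 lower in both comparisons among 2869 above the minimum. Of the 113 genes higher in low cells, 81 were above the minimum in high cells and 40 were at least 2-fold higher there, and of the 150 lower genes 135 were above it and 49 at least 2-fold lower. For all 24 genes furthest apart, the ratio had the same sign in high cells. Whether low and high cells differ in these ratios was not tested.

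Spp1, Timp1, Col1a2 and Postn were among the 12 genes furthest above. Spp1, the gene of osteopontin, had 0 UMIs in low cells of B10 and 83.8 CPM in mdx, then 0.759 in DBA and 253 in D2-mdx, so that mdx was higher by at least 8.48 log2 units (against a floor of 3 counts in the library) and D2-mdx by 8.38. Timp1, an inhibitor of metalloproteinases, was at 1.56, 155, 1.52 and 145 CPM. Col1a2, a chain of collagen I, was at 11.2, 852, 13.9 and 557 CPM, with log2 ratios of 6.25 and 5.32 that were 3.78 and 3.54 without the cells rich in matrix genes, for which it is a marker. Postn, the gene of periostin, was at 1.41, 221, 3.23 and 117 CPM. Of 9 measured genes of the matrix list, which is not independent of these libraries, 8 were higher in both comparisons, of which 4 entered only through the dystrophic libraries, beside 3.54% of all genes, and 5 were higher without those cells. Summed markers of fibroblasts or tenocytes moved the same way, from 3.12 CPM in B10 to 25.7 in mdx and from 1.90 in DBA to 257 in D2-mdx, and their part in these ratios was not tested.

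Of the inhibitors of the cell cycle, Cdkn1c, Cdkn2a and Cdkn1a were higher in the low cells of both dystrophic strains. Cdkn1c (chromosome 7, 143458339 to 143461050) was at 19.4 CPM in B10 and 833 in mdx, and at 20.3 in DBA and 410 in D2-mdx. The log2 ratios were 5.42 (5.24 to 5.61) and 4.34 (4.13 to 4.54), and 3.31 and 3.76 without the matrix cells. Cdkn2a, the locus of p16 and p19ARF, was at 1.56, 87.0, 2.47 and 147 CPM, and Cdkn1a at 15.2, 103, 22.3 and 101. All 3 entered only through the dystrophic libraries, so that their number among the 5 measured inhibitors is not read against the 3.54% of all genes. Without the matrix cells Cdkn2a had log2 ratios of 5.19 and 5.62 and Cdkn1a of 2.48 and 2.05.

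Other genes among the 12 furthest above have diverse roles. Ttn, which encodes the sarcomeric protein titin, was at 5.93, 211, 4.93 and 149 CPM. Cacng1, a subunit of the calcium channel of skeletal muscle, was at 3.12, 113, 1.90 and 144 CPM. Dpysl3, a regulator of the cytoskeleton, was at 1.72, 159, 3.32 and 174 CPM. Ahnak2, Col8a1 and Fabp5, a fatty acid binding protein, completed the set, and no gene of the 12 had a control value above 20.3 CPM. The counting intervals reached up to 0.71 log2 units from the ratio of mdx over B10, apart from the open upper end for Spp1, and up to 1.1 for D2-mdx over DBA.

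**Figure D5:**
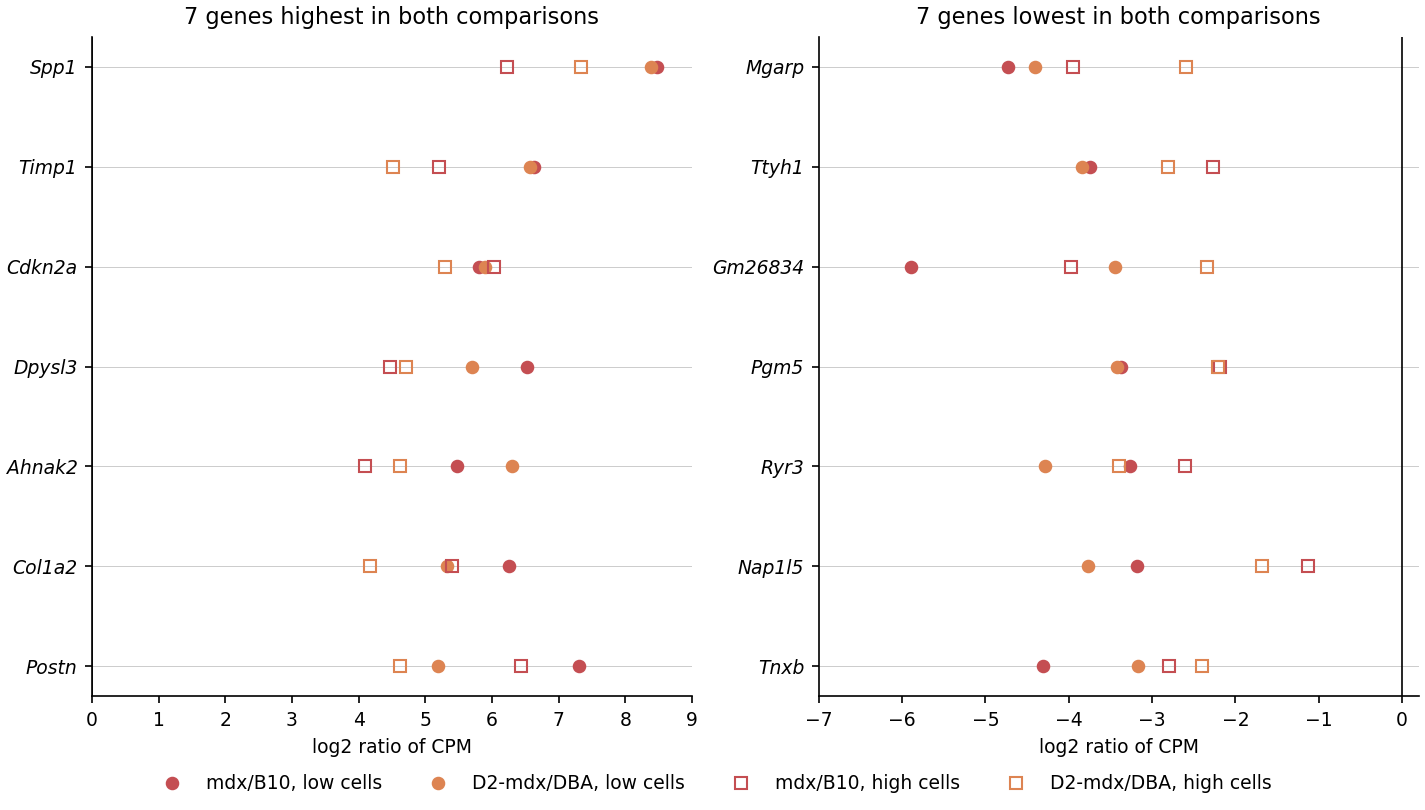
Log2 ratio of CPM in dystrophic over control libraries (x axes) for the 7 genes furthest above and the 7 furthest below in both comparisons (y axes), with filled circles for low cells and open squares for high cells. Spp1 in low cells of mdx is drawn at its lower bound of 8.48, and every gene has the same sign in low and in high cells.

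Mgarp and 2 calcium channel genes were among the 12 furthest below. Mgarp, a mitochondrial protein, was at 79.3 CPM in low cells of B10 and 2.98 in mdx, then 166 in DBA and 7.84 in D2-mdx. Ryr3 had log2 ratios of -3.26 (-3.49 to -3.04) and -4.29 (-4.73 to -3.88), and -3.0 and -4.43 without the matrix cells. Cacna1d, a voltage-gated calcium channel, was at 84.1, 5.65, 111 and 13.0 CPM. Ttyh1, which encodes a membrane channel protein, was at 188, 14.0, 328 and 22.9 CPM.

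Matrix and peptide genes were among the 12 furthest below too. Tnxb, the matrix protein tenascin-X, was at 211, 10.6, 171 and 19 CPM, in the opposite direction to the matrix genes above. Tac4, a tachykinin precursor, was at 62.5, 0.818, 120 and 14.0 CPM. Gm26834, Pgm5, Nap1l5, Clmp and Ppp1r14a were also among the 12, and for each of the 12 both control values lay above both dystrophic values. Counting intervals reached up to 0.93 and 0.58 log2 units from the ratios of the comparisons.

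Genes of quiescence were lower in the low cells of both dystrophic strains. Of 97 measured genes of the genuine quiescence list, 51 were at least 2-fold lower in both comparisons and 1, the laminin chain gene Lamb1, was higher, beside 4.69% and 3.54% of all genes. The median log2 ratio was -1.15 for mdx over B10 and -1.26 for D2-mdx over DBA, where the medians of all genes were -0.00 and -0.00. Of the 51 genes 30 entered only through the controls, so that the count was in part set by the minimum. Lamb1 entered only through the dystrophic libraries, and its log2 ratios of 2.31 and 1.20 were 1.33 and 0.34 without the matrix cells. Without the matrix cells the medians were -0.93 and -1.07 and 38 genes were lower, beside 3.16% of all genes, and in high cells the medians were -0.79 and -0.66. Members that were lower with all low cells included Cd34, Hdac4, Col19a1 and Ackr3. Without the matrix cells Ackr3 alone of these was past the fold in both comparisons. The ratios were -0.98 for Cd34 in D2-mdx over DBA, and -0.9999 for Hdac4 and -0.75 for Col19a1 in mdx over B10.

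Among 22 surface and secreted genes of quiescence 9 were lower and 0 higher in both comparisons: Calcr, Cd34, Chrdl2, Cxcr4, Gas1, Gpx3, Igfbp4, Ryr3 and Vtn. Over all genes the shares were 4.69% and 3.54%, and 4 of the 9 entered only through the controls. The list was drawn up with earlier results of these data known, so that the count is not independent of them. Without the matrix cells 6 of the list were lower, beside 3.16% of all genes. Those no longer past the fold in both were Calcr (-0.72 and -0.92), Cd34 (-0.98 for D2-mdx over DBA) and Gas1 (-0.89 for mdx over B10). Chrdl2, a secreted inhibitor of bone morphogenetic proteins, was at 391 CPM in B10 against 62.3 in mdx, and 323 in DBA against 85.3 in D2-mdx. Vtn, the adhesion protein vitronectin, was at 115, 24, 96.1 and 26.2 CPM. The median log2 ratios of the 22 were -0.74 and -0.80, then -0.64 and -0.68 without the matrix cells, and -0.29 and -0.25 in high cells. Low cells therefore had the lower medians of the pair in both comparisons, which was not tested.

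Pax7 itself was lower with a log2 ratio of -1.08 in mdx (-1.13 to -1.04, over B10) and of -0.64 in D2-mdx (-0.71 to -0.58, over DBA). In high cells the ratios were -0.68 and -0.23. Every low and high cell had at least 1 UMI of Pax7 by the rule, so that these levels were in part set by it and are a description. Of 10 measured Notch pathway genes 1, Numb, an inhibitor of Notch, was at least 2-fold lower in both comparisons, beside 4.69% of all genes. Numb was at 63.2, 21.8, 50.2 and 22.8 CPM and entered only through the controls, so that it is not read against that share. Without the matrix cells its log2 ratios were -0.99 and -0.91, so that 0 of the 10 were past the fold. The medians of these genes were -0.45 and -0.63. Among 10 myogenic factors 1, Id3, was higher in both, with log2 ratios of 1.16 and 1.40, beside 3.54% of all genes. Without the matrix cells these ratios were 0.81 and 1.19, and 0 of the 10 were past the fold in both.

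Few growth factors and cytokines were above the minimum. Of 4 measured genes 3, among them Igf1 and Vegfa, were at least 2-fold lower in both comparisons and Cxcl1 at least 2-fold higher, beside 4.69% and 3.54% of all genes, and 2 were lower and 1 higher without the matrix cells. Of these calls Cxcl1 entered only through the dystrophic libraries and 1 of the lower genes only through the controls. Calls that entered so are not read against the shares of all genes. Igf1, a growth factor for muscle, was at 200 CPM in B10 against 68.5 in mdx, and 542 in DBA against 89.1 in D2-mdx. Vegfa, a growth factor for vessels, was at 57.4, 9.37, 51.2 and 13.4 CPM. Cxcl1 was at 25.5, 64.8, 30.8 and 68.9 CPM. The maternally expressed noncoding RNA Meg3 was at 4793, 747, 2357 and 254 CPM, with log2 ratios of -2.68 and -3.21.

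Immediate-early genes lay on both sides of the controls in the low cells of the dystrophic strains. Of 20 measured genes of the list 4, Cyr61, Gadd45g, Ier5 and Nfkbia, were at least 2-fold higher and 1, Fosb, at least 2-fold lower in both comparisons, beside 3.54% and 4.69% of all genes, and the median log2 ratios were 0.34 and 0.14. Leaving out the matrix cells, 3 were higher and 0 lower, where the ratios of Fosb went from -1.36 and -1.28 to -0.91 and -1.10 and those of Cyr61 from 1.30 and 1.68 to 0.96 and 1.68. Of the 4 higher genes 2 entered only through the dystrophic libraries. Gadd45g, a stress-induced gene, was at 13.7, 155, 15.2 and 163 CPM. None of 14 measured heat shock genes and none of 9 of autophagy and lysosomes was 2-fold apart in both comparisons.

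Of 4 measured cell cycle genes Cdk6, a kinase, was past the fold in both comparisons, beside 3.54% of all genes. It was at 11.2 CPM in B10 and 98.7 in mdx, then 13.3 in DBA and 75.7 in D2-mdx. Cdk6 entered only through the dystrophic libraries, so that it is not read against that share. Without matrix cells Cdk6 had log2 ratios of 3.14 and 2.48. No gene among 82 of ribosomal proteins or 76 of oxidative phosphorylation passed the fold in both, beside 3.54% and 4.69% of all genes. The medians of these lists were 0.12 and 0.02, and 0.21 and 0.44. Genes induced by interferon and genes of cell polarity had none above the minimum. Of the TU 6h in vivo list 2 of 67 genes, Ttn and H19, were higher and 10 lower, beside 3.54% and 4.69% of all genes. Of these, both of the higher and 8 of the lower genes entered only where they are high, so that these counts are not read against the shares. Without the matrix cells 1 was higher and 6 lower, beside 2.66% and 3.16% of all genes. Of the ex vivo list 30 of 310 were higher and 36 lower, beside 3.54% and 4.69% of all genes, with medians of -0.01 and -0.02. In the cells without matrix genes 20 of the 310 were higher and 28 lower, beside 2.66% and 3.16% of all genes. Of the 30 and 36 there were 12 and 18 that entered only where they are high.

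Markers of other cells differed between types and libraries in the low cells. Cdh5, Sox10 and Ptprc were at 0 in every library, as the rule required. The 6 markers of fibroblasts or tenocytes summed to 3.12 CPM in B10 against 25.7 in mdx, and 1.90 in DBA against 257 in D2-mdx, with Dcn the most abundant. The 7 markers of white blood cells summed to 2.19, 33.5, 4.65 and 142 CPM, led by Lyz2, and the 4 of erythrocytes to 26.9, 22.8, 12.2 and 784 CPM, led by Hbb-bs. Markers of endothelial cells (7 genes) summed to 2.89, 10.9, 2.85 and 8.29 CPM, and those of glia (6 genes) to 17.6, 46.3, 10.1 and 31.2 CPM. Those of pericytes (6 genes, led by Rgs5) summed to 23.1, 32.0, 27.3 and 53.8 CPM.

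The 6 markers of myofibers, led by Acta1, summed to 40.6, 116, 23.6 and 138 CPM. Those of smooth muscle (5 genes) summed to 413, 577, 512 and 737 CPM, led by Acta2, which satellite cells also express. Of these lists only that of smooth muscle had genes above the minimum of 50 CPM (2). No call could therefore be made for the others. Sums for fibroblasts or tenocytes, white blood cells, myofibers, endothelial cells and glia were over 2-fold higher in both dystrophic libraries than in their controls. The part of these RNAs in the other results was not tested.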

How the data were processed

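Single-cell 3′ libraries (10X v3.1) of 1 pool of 2 mice per strain were measured, with 49191944 UMIs in B10 against 67156373 in mdx, and 43542853 in DBA against 75482888 in D2-mdx. The authors' processing notes name Cell Ranger 3.0.1 and mm10, and the deposited values are raw counts of UMIs per gene and barcode, without normalization. Whether the barcodes were filtered further before deposition is not given in the sources used here. The low cells hold 12807275, 13441011, 10539640 and 6634294 UMIs in this order of libraries.

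UMIs were summed over low and over high cells of a library, scaled to CPM and compared as log2 ratios. A gene entered with at least 50 CPM and was called at 2-fold. Where a count was 0, a floor of 3 counts per library gave a bound, and no ratio was formed where both counts were at or under it. Intervals are exact Poisson intervals for levels and exact binomial intervals for shares and for ratios of counts. Since PCR and capture add error, they cover counting error only. No test was run, since each strain was 1 library and low and high cells were split by genes of the same measurement. Doublets were not removed in the main analysis, since the rule leaves out cells with genes of other types, and removing those with the highest Scrublet scores (scanpy 1.11.5; 3.80%, 5.34%, 2.70% and 4.84% of cells) was an alternative. Others were the limits of the rule, the minimum, means per cell, TMM sizes (edgeR 4.0.16) and DESeq2 1.42.0 size factors in R 4.3.3, and cells without matrix genes, of which the limit of 5 UMIs per 10000 was chosen after the data were seen.

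Python 3.11.15, numpy 2.4.6, pandas 2.3.3, scipy 1.17.1 and matplotlib 3.10.9 were used. Ratios and intervals were checked on simulated Poisson counts without variation between cells, mice or libraries. The check covers the calculation and says nothing about the spread between libraries. Gene coordinates are those of GENCODE M21 on GRCm38, and promoter windows use the gene starts of RefSeq. The members, the markers and the 22 gene lists drawn up here were chosen with earlier results of these data known. Genes were named by rule: those of the rule for the cells and its markers, Dmd, the 12 highest and 12 lowest of each ranking by their least extreme library or comparison, and up to 4 members of each list, at 20 CPM or more, with the largest absolute mean log2 ratio. Other genes were named because they make up a small count or exemplify one, after their values were seen. Cebpd and Rian were not analysed here. Some genes that the rule names are not reported here.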

Additional observations from a re-analysis of the deposited data

How the results depend on the processing

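Each strain is 1 library of pooled mice, so that no result has a replicate, and age, sort and depth differ with strain. No paired test was run: low and high cells were split by genes of the same measurement, and each strain is 1 library. The low cells are a range of a continuous measure, and their share followed the limits. The mdx share minus the B10 share (1.96 percentage points) was -3.60 with the limit at 200 per 10000, 7.43 with at most 5% mt- UMIs and -8.77 without cells of 5 or more matrix UMIs per 10000. The D2-mdx share minus the DBA share (-12.0) was -4.21 with the limit at 50, -28.8 with it at 200 and -16.5 without those cells. The 38 genes lower in low cells of all 4 libraries were 22 at a minimum of 200 CPM and 38 to 54 with 1 library left out (54 without DBA), and 0 genes were higher under every alternative run. TMM called 44 and DESeq2 size factors 40, and each included the 38. In the disease comparisons of low cells, 113 genes were higher and 150 lower. Without cells with any matrix marker UMI there were 67 and 82, with a minimum of 10 CPM 323 and 370, and of 200 CPM 30 and 37. Other rules for the cells, removal of doublets and both scalings kept these counts within 1.5 times. TMM lowered the log2 ratios of low over high cells by a median of -0.19 in B10 against -0.15 in mdx, and -0.13 in DBA against -0.12 in D2-mdx. Of 3642 recomputed values of single genes and shares, 768 moved by more than their counting interval. The mdx minus B10 share changed sign, as given above. Mest and Islr, higher in both comparisons, had log2 ratios for mdx over B10 of 1.60 and 1.05. Without cells of 5 or more matrix UMIs per 10000 these were -0.00 and -0.53. The cause of these movements was not tested. At these depths, genes under about 50 CPM were not compared as calls.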
